A study of Homo sapiens with 12 samples.

Results

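In control HCT116 cells, the regions listed for H3K9me1 were set against the peaks listed for H3K9me3, to show how much H3K9me1 lay inside H3K9me3 peaks and at each distance from them. The 4 libraries used were those labelled 0 hr and prepared with an H3K9me1 or an H3K9me3 antibody, lettered A and B for each mark, of 12 libraries in the series, 8 of which have peak files here. HCT116, an established line from a human colorectal carcinoma, was grown at passage 19 in RPMI-1640 with fetal bovine serum. The control H3K9me1 group (2 libraries) and the control H3K9me3 group (2 libraries) precede any methionine restriction, and each was made with a rabbit monoclonal antibody from Abcam. The other ChIP libraries came from cells kept for 24 hr in methionine-free medium, and are used below only for a single comparison. Sonicated whole cells were the source, and all libraries come from 1 cell line at 1 passage. The labels do not tell whether the letters mark separate cultures, so the spread between A and B may be technical.

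Lysine 9 of histone H3 can be mono-, di- or trimethylated with methyl groups drawn from the methyl donor S-adenosylmethionine, which cells make from methionine. H3K9me3 is laid down by the SUV39H and SETDB1 methyltransferases, is read by HP1 proteins, and marks constitutive heterochromatin such as the repeats beside centromeres and KRAB zinc finger gene clusters. H3K9me1, the monomethylated state, is known both as a precursor of the higher states and as a mark over transcribed, gene-rich chromatin. A single histone tail cannot carry both states at once, but a ChIP region averages over many cells and over both alleles.

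The H3K9me1 lists were broad and weak, and the H3K9me3 lists small. H3K9me1 control A listed 661085 regions on 20 chromosomes and covered 308 Mb, 11.18% of the length of those chromosomes. H3K9me1 control B listed 454516 regions on 10 chromosomes and covered 226 Mb, 14.96% of their length. Chromosomes 19, 20 and X are in neither control H3K9me1 list, and B also lacks 4, 5, 8, 9, 11, 13, 14, 15, 18 and 21. Of the 1372 H3K9me3 peaks of control A on chromosomes 1 to 22 and X, 1227 lay on chromosomes listed for H3K9me1 A, and of the 797 of control B, 386 lay on chromosomes listed for H3K9me1 B. Reads per library numbered 30952210 to 35736289. Values below, unless named otherwise, are relative H3K9me1 densities, the H3K9me1 covered share of a zone divided by the covered share of the listed chromosomes in the same library, so that 1 is the level of those chromosomes as a whole. The same letter of both marks was paired unless stated, giving n = 2 pairs, each of which shares an input library; the 2 crossed pairs reuse the same libraries and are not independent.

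Over all peaks together, H3K9me1 was sparse inside H3K9me3 peaks and sparser still in their first 2 kb of flank. It first reached the chromosome level at 30 to 40 kb in B and 130 to 140 kb in A. Inside peaks the relative density was 0.625 in control A and 0.656 in control B (0.640 ± 0.0221, SD, n = 2). In the crossed pairs it was 0.571 for H3K9me1 A inside H3K9me3 B peaks and 0.517 for H3K9me1 B inside H3K9me3 A peaks. All 4 pairs thus lay below 1. They share libraries, so the spread between them does not measure variation between replicates. These values rest on 88.7 kb of H3K9me1 in 1270 kb of peaks in A and on 43.7 kb in 446 kb in B. With the length of all chromosomes as divisor, which counts unlisted chromosomes as uncovered, the values were 0.688 in A and 1.32 in B.

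The 10 kb steps gave the same picture from the peak edge outwards. At 0 to 10 kb the relative density was 0.586 in A and 0.661 in B, and 0.576 and 0.621 in the crossed pairs (0.623 ± 0.0534 for the same-letter pairs, SD, n = 2). At 10 to 20 kb it was 0.864 in A and 0.879 in B, and at 20 to 30 kb 0.902 and 0.946. From 30 to 60 kb it ran from 0.909 to 0.965 in A and from 0.961 to 1.03 in B. From 100 to 200 kb the steps ran from 0.968 to 1.11 in A and from 1.02 to 1.16 in B. The first step was the lowest of the 20 in every pair. In A 13 of the 20 steps lay below 1, and in B 6. The last step, 190 to 200 kb, had 1.11 and 1.08 (1.09 ± 0.0211, SD, n = 2), and the crossed pairs 1.09 and 1.11. Set against 100 to 200 kb around the same peaks, which does not depend on the divisor, the inside density was 0.613 times as high in A and 0.604 times in B (0.609 ± 0.00628, SD, n = 2).

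**Figure D1:**
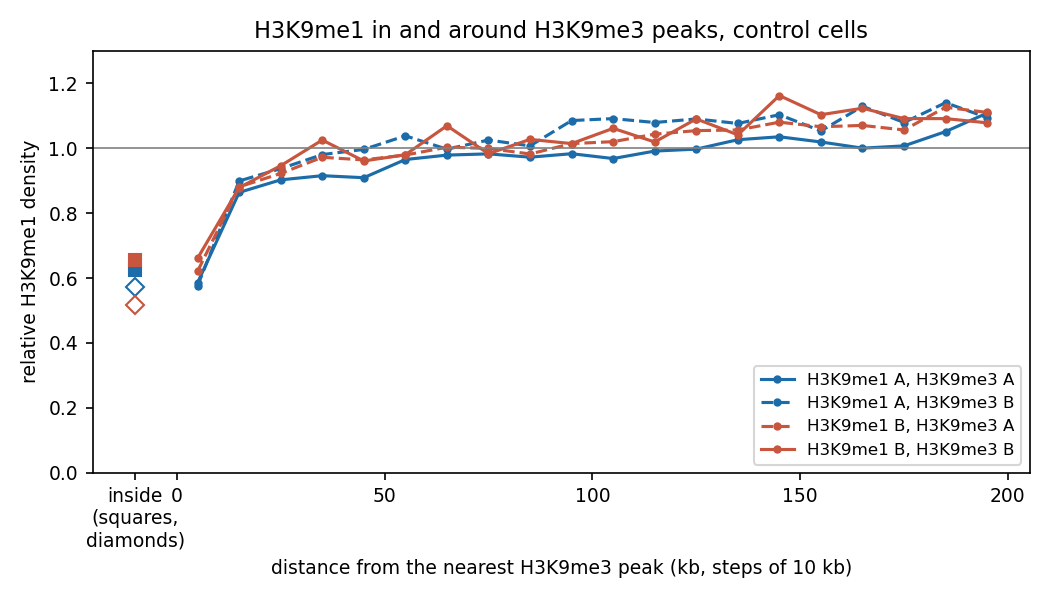
Relative H3K9me1 density (vertical axis, no unit) inside H3K9me3 peaks (squares for same-letter pairs, open diamonds for crossed pairs) and in 10 kb steps of distance from the nearest peak (horizontal axis, kb), for the 4 control library pairs; colour gives the H3K9me1 library, and the grey line is the level of its listed chromosomes. All 4 pairs lie between 0.517 and 0.661 inside peaks and in the first step, and near or above 1 beyond 100 kb.

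Over all peaks together, the lowest H3K9me1 density lay just outside the peaks rather than within them. In steps of 1 kb, the first had 0.289 in A and 0.428 in B and the second 0.317 and 0.393. Both are below the value inside the peaks in the same library. Peaks in the first or last 2 Mb of a chromosome had the other order in both libraries. They had 0.280 in A and 0.132 in B inside, and 0.394 and 0.251 at 0 to 2 kb. Over all peaks the density then rose with distance, to 0.525 and 0.636 at 3 to 4 kb, and to 0.762 and 0.750 at 5 to 6 kb. At 9 to 10 kb it stood at 0.773 and 0.871. Per the file headers, the peak caller took the local background from windows of 1000 and 10000 bp. H3K9me1 regions at 0 to 10 kb had a median implied background of 1.83 in A and 1.55 in B. Regions at 100 to 200 kb, outside the dip, had 1.749 and 1.526, and those over 200 kb away 1.56 and 1.44. The median was thus above the level beyond 200 kb at both distances. The part of the local background in the dip was not tested. Over larger distances the density was 0.895 and 0.945 at 0 to 100 kb, 1.02 and 1.09 at 100 to 200 kb, and 1.09 and 1.12 at 200 to 300 kb. Between 200 kb and 1 Mb every 100 kb step lay between 1.05 and 1.15 in both libraries. Sequence 200 kb to 1 Mb from H3K9me3 peaks thus held slightly more H3K9me1 than the chromosomes as a whole.

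**Figure D2:**
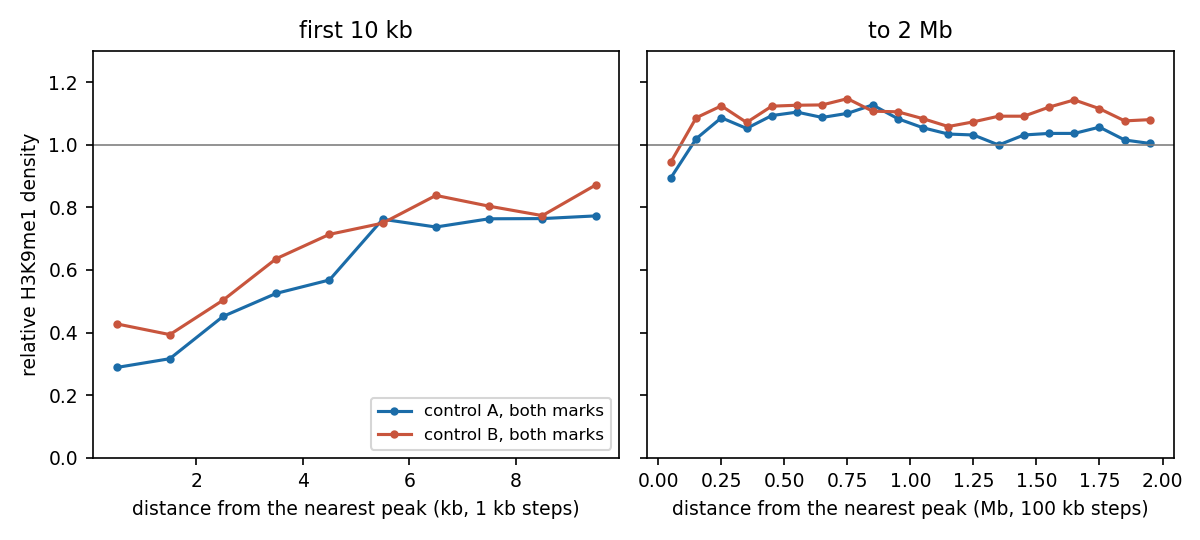
Relative H3K9me1 density against distance from the nearest H3K9me3 peak in 1 kb steps to 10 kb (left, kb) and in 100 kb steps to 2 Mb (right, Mb), for control A and control B. The density is lowest in the first 2 kb, 0.289 to 0.428, and lies above 1 from 200 kb to 1 Mb in both libraries.

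Counted peak by peak, most H3K9me3 peaks held no H3K9me1 region. In control A 231 of 1227 peaks (18.8%, 95% Wilson interval 16.7% to 21.1%) overlapped H3K9me1 by at least 1 bp, against 27.4% of all windows of the median peak width, 708 bp, on the same chromosomes. In control B 124 of 386 peaks (32.1%, 27.7% to 36.9%) did so, against 35.8% of windows of 732 bp. The interval of B includes its window share, so in B the difference was not detectable by this count. Intervals cover counting error only, and windows of 1 width do not carry the spread of peak widths. The H3K9me1 covered share was lower inside the peak than 100 to 200 kb to either side of it for 1017 peaks in A (82.9%) and 290 in B (75.1%). A peak that no H3K9me1 region touches counts as lower here, and the median window of these widths was also untouched, so these shares say little about peaks in particular.

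H3K9me1 inside peaks was unevenly spread over the peaks. The 10 peaks with the most H3K9me1 held 29.8% of all H3K9me1 inside peaks in A and 30.7% in B, and in each library 9 of these 10 lay within 5 Mb of a centromere gap, the stretch without any region at the centromere. Of all peaks, 412 of 1227 in A and 164 of 386 in B lay that near. Those peaks together held 53.0 of the 88.7 kb of H3K9me1 in 588 of the 1270 kb under peaks in A, and 23.6 of 43.7 kb in 270.3 of 446 kb in B, so in B they held less than their share of length. The peak with the most H3K9me1 was the same locus in both lists, chr2:92312546-92325765 (hg19) in A with 9.03 kb of H3K9me1 and chr2:92312564-92325730 in B with 5.05 kb. Without the 10 peaks the density inside was 0.466 in A and 0.542 in B; they were picked for high values, so this only shows how much they carry. Leaving out chromosome 2 gave 0.549 in A, and leaving out chromosome 16 gave 0.657, the ends of the range over chromosomes. In B the range was 0.604 without chromosome 7 to 0.727 without chromosome 16.

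The H3K9me1 level around peaks differed with the place of the peak on its chromosome. H3K9me3 peaks within 5 Mb of a centromere gap, where satellite repeats adjoin the arms, had H3K9me1 densities below 1 inside and at every distance. The distances beside these peaks include bases of the gap itself, which no list covers by definition. This lowers their density by an amount not measured here. There the density was 0.806 in A (412 peaks) and 0.583 in B (164 peaks) inside peaks, 0.276 and 0.273 at 0 to 10 kb, and still 0.591 and 0.548 at 100 to 200 kb. With the gap bases counted, inside was therefore 1.36 and 1.07 times the level at 100 to 200 kb, the opposite of the pooled order. Peaks in the first or last 2 Mb of a chromosome had the least H3K9me1 inside, with 0.280 in A (150 peaks) and 0.132 in B (31 peaks), against 1.22 and 1.13 at 100 to 200 kb. Only 0.545 kb of H3K9me1 lies behind the B value. Peaks on the rest of the arms had 0.522 in A (665 peaks) and 0.887 in B (191 peaks) inside, 0.6995 and 0.878 at 0 to 10 kb, and 1.08 and 1.21 at 100 to 200 kb. The arm peaks differed more between A and B inside than in the surroundings. Within the first 2 kb of arm flank the density was 0.327 in A and 0.613 in B, and by 5 to 10 kb it had reached 0.908 and 1.02.

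**Figure D3:**
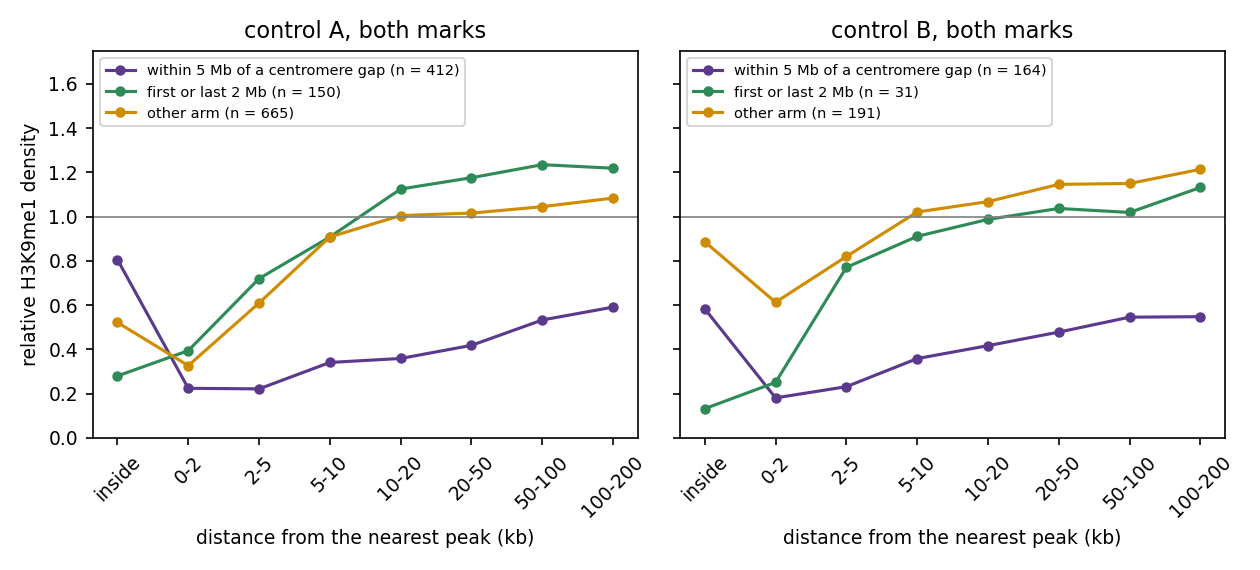
Relative H3K9me1 density inside H3K9me3 peaks and at 7 ranges of distance from them (horizontal axis, kb), for peaks within 5 Mb of a centromere gap, in the first or last 2 Mb, and on the other arm sequence, in control A (left) and control B (right), with the number of peaks in the key. Outside peaks beside centromere gaps the density stays below 0.6 out to 200 kb, with bases of the gaps, which no list covers, counted in these distances. The other places reach the chromosome level between 5 and 50 kb.

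The depth of the input at a peak differed between these places. The local background at H3K9me3 peaks that the deposited pileup and fold imply was a median of 15.4 in A and 30.7 in B near centromere gaps, 4.95 and 11.3 times the level expected from input depth. On the other arm sequence it was 5.32 and 4.65, 1.72 times the expected level in each library. Pileup over fold only approximates the background and can exceed it, so these multiples may be too high. By terciles of this background, the density inside was 0.643, 0.347 and 0.769 from the lowest to the highest in A, and 1.09, 0.516 and 0.561 in B. Of the lowest tercile, arm peaks alone had 0.622 in A (317 peaks) and 1.22 in B (111 peaks). Peaks of the lowest tercile in B thus showed no lower density inside than the chromosomes as a whole. In the first 2 kb of flank of the lowest tercile the density was 0.307 in A and 0.538 in B. How far the input depth accounts for the differences between places was not tested.

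H3K9me1 inside peaks had no common order by peak strength in A and B, and by width it was highest in the narrowest peaks of both. Peaks with a −log10 q of at least 5, as the authors' caller gave it, had a density of 1.12 in A (144 peaks, 114 of them near a gap) and 0.679 in B (74 peaks, 65 near a gap). Those with −log10 q under 2 had 0.417 in A and 0.745 in B, and those from 2 to 5 had 0.492 and 0.494. By width, peaks under 500 bp had 0.920 and 1.18, those from 500 bp to 2 kb 0.466 and 0.638, and those of 2 kb or more 0.786 and 0.519. Peaks found in both H3K9me3 lists had 0.731 in A and 0.560 in B, against 0.532 and 0.857 for peaks in 1 list alone, again in opposite order. On the other arm sequence, however, peaks found in both lists were the poorer ones in each library, with 0.340 in A (98 peaks) and 0.605 in B (59 peaks), against 0.572 and 1.07 for arm peaks in 1 list alone. The surroundings of these shared arm peaks at 100 to 200 kb had 1.42 and 1.34, against 1.03 and 1.17 for the arm peaks of 1 list.

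Relative to the covered share of its own chromosome, H3K9me1 inside peaks was below 1 on 16 of 19 chromosomes in A and on 7 of 9 in B with at least 10 kb under peaks. The medians were 0.491 and 0.594. The lowest values in A were 0.215 on chromosome 12, 0.245 on chromosome 17 and 0.261 on chromosome 16. In B they were 0.345 on chromosome 17 and 0.351 on chromosome 16. Chromosomes 16 and 17 were thus low in both libraries. Those above 1 were chromosomes 2 (1.34), 9 (1.08) and 18 (1.33) in A and 7 (1.17) and 22 (1.33) in B. None of 2, 7 and 22 was above 1 in both, and 9 and 18 are not listed for H3K9me1 in B. Chromosome 7 had 0.389 in A and chromosome 22 had 0.491, and chromosome 2 had 0.911 in B. At 0 to 10 kb the density was below the chromosome's own share on 19 of 19 chromosomes in A and on 8 of 9 in B, the exception being chromosome 22 at 1.07. At 100 to 200 kb it was below on 10 of 19 and on 3 of 9.

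**Figure D4:**
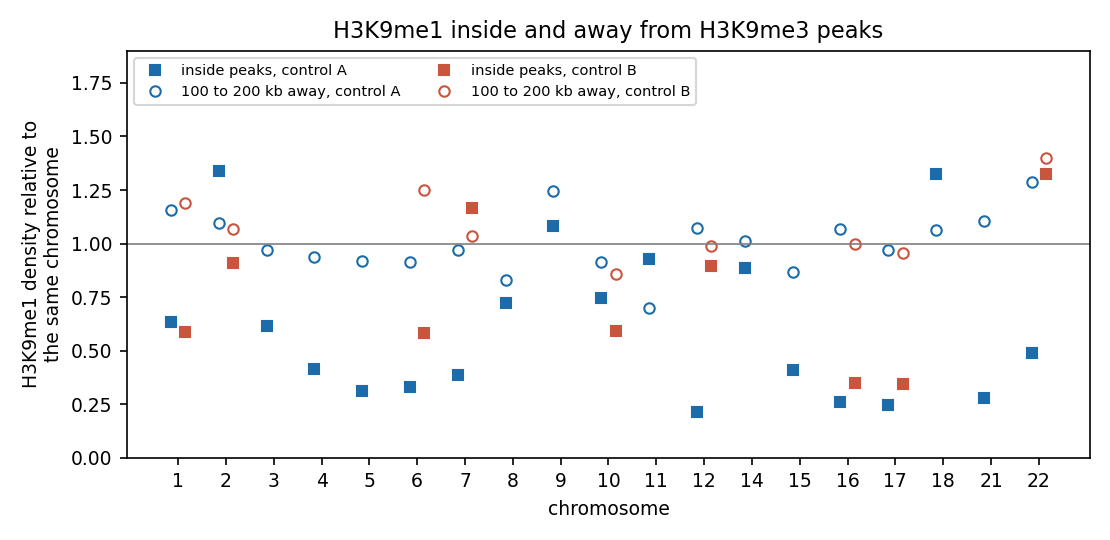
H3K9me1 density relative to the covered share of the same chromosome (vertical axis) inside H3K9me3 peaks (filled squares) and at 100 to 200 kb from them (open circles), by chromosome, in control A and control B. Inside peaks 16 of 19 chromosomes in A and 7 of 9 in B lie below 1, while the open circles scatter around 1.

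The H3K9me1 regions that did overlap H3K9me3 peaks had a higher coverage and a lower fold than those elsewhere in the same list. In A 269 H3K9me1 regions overlapped a peak, with a median pileup of 4.99 against 3.27 for regions over 200 kb away, and a median fold of 1.80 against 1.98. In B 146 regions overlapped a peak, with a median pileup of 3.57 against 2.69 and a median fold of 1.73 against 1.82. The interquartile ranges of the fold were 1.46 to 1.96 and 1.51 to 1.88 at peaks, and 1.86 to 2.11 and 1.74 to 1.94 over 200 kb away, so they overlapped. The median −log10 p was 1.45 against 1.34 in A and 1.39 against 1.33 in B. These are the caller's own values and describe regions within a list.

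Which H3K9me1 regions were kept turned the direction inside peaks. Among regions with a −log10 p of at least 2, 52 of 27623 in A (0.188%) and 16 of 3846 in B (0.416%) overlapped an H3K9me3 peak. Centromere gaps lay within 5 Mb of 42 and 14 of them. For them the relative density inside peaks was 6.56 in A and 16.1 in B, above 1 in both. Beside centromere gaps alone it was 13.2 and 24.8, and on the other arm sequence 0.889 and 3.24, the latter resting on 0.369 kb. With a fold of at least 2 in place of the −log10 p, the density inside was 0.236 and 0.259. For the regions with a −log10 p of at least 2, the density inside peaks in the first or last 2 Mb was 0.440 in A and 0 in B, from 0.23 kb and none. Regions of high −log10 p were thus dense in peaks beside centromere gaps in both libraries, and in other places their density lay on either side of 1.

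Seen from H3K9me1, H3K9me3 was densest in the 1 Mb bins poorest in H3K9me1, through bins beside centromeres. The bins of the listed chromosomes were ranked by H3K9me1 covered share and cut into quintiles. In the lowest quintile H3K9me3 had a relative density of 1.88 in A and 2.46 in B, and in the highest 0.691 and 0.740. In the lowest quintile 214 of 551 bins in A and 104 of 302 in B lay within 5 Mb of a centromere gap or in it, against 30 of 550 and 15 of 301 in the highest. Without those bins the lowest quintile had 1.16 in A and 0.877 in B, and the highest 1.16 and 1.55. Away from centromeres the bins rich in H3K9me1 thus had as much H3K9me3 as the poorest ones in A and more in B. The second quintile was the lowest there, at 0.662 and 0.320.

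**Figure D5:**
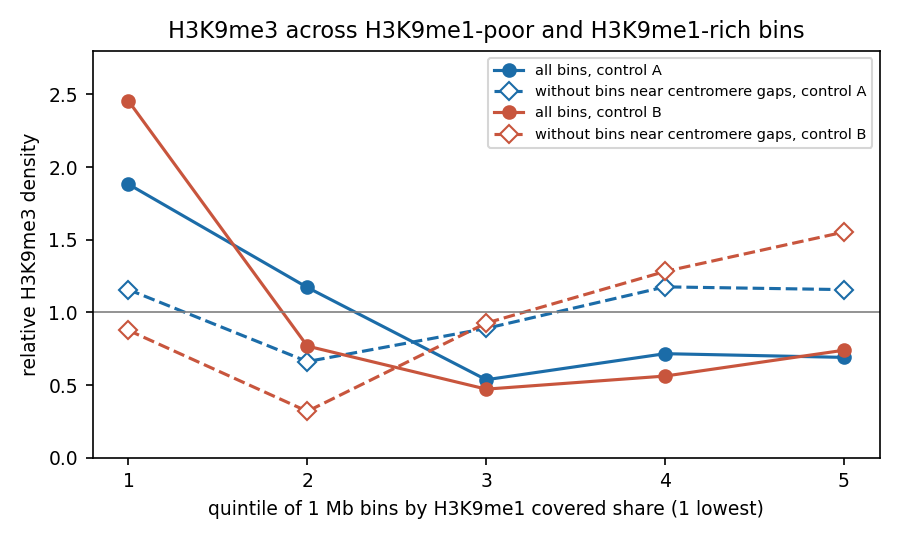
Relative H3K9me3 density (vertical axis) in quintiles of 1 Mb bins ranked by H3K9me1 covered share (1 lowest, 5 highest), for all bins (filled circles) and without bins within 5 Mb of a centromere gap (open diamonds), in control A and control B. The excess in the lowest quintile, 1.88 and 2.46, falls to 1.16 and 0.877 without the bins near gaps.

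Merging both control H3K9me3 lists gave 187 regions present in both and lying on the 10 chromosomes that both H3K9me1 lists hold. Of the 187, 104 were near a gap by the same 5 Mb limit and 83 were on the arms beyond, chromosome ends included. On the arms 69 regions (83.1%, 95% Wilson interval 73.7% to 89.7%) held no H3K9me1 of A and 56 (67.5%, 56.8% to 76.6%) none of B. Of all arm windows of 1497 bp, the median width of these regions, 53.5% held none in A and 46.4% none in B. Within 100 kb to either side the median relative density of the 83 regions was 1.32 in A and 1.27 in B, against 1.22 and 1.11 for all arm windows of 200 kb. The surroundings of shared arm regions were therefore close to, and slightly above, the arm level. The 104 regions near gaps had medians of 0.197 and 0.211, where the surroundings can reach into the gap, which holds no listed region.

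The 5 widest shared H3K9me3 regions all lay within 5 Mb of centromere gaps and differed widely in H3K9me1. The widest, chr17:22244625-22261846 (hg19), had 7.28% of its length under H3K9me1 in A and 4.36% in B. At chr10:42383258-42397113 the shares were 27.6% and 13.3%, and at chr2:92312546-92325765 they were 68.3% and 38.6%. At chr10:42363301-42375539, in the same stretch of chromosome 10, both libraries listed no H3K9me1. At chr16:46398028-46409079 the shares were 7.88% and 6.61%. The surroundings of these 5 within 100 kb had 0.0692 to 0.736 in A and 0.0665 to 0.406 in B. Part of a centromere gap, which no list covers by definition, lies within 100 kb of each. The low values may thus partly reflect the gap, and values without its bases are not given here. An hg19 gene annotation was not used here, and these positions therefore carry no gene, exon or intron labels.

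The 5 widest shared arm regions were nearly free of H3K9me1. They were 2934 to 5532 bp wide, and the share of arm windows of such widths without H3K9me1 was not computed. Of narrower arm windows, of 1497 bp, 53.5% held none in A and 46.4% none in B. Whether these 5 were emptier than other arm sequence was therefore not tested. The widest, chr17:5082466-5087997, held none in A or B, with surroundings of 0.858 and 0.836. None was listed in either library at chr2:227660459-227663783, chr6:3094291-3097377 or chr7:16436539-16439472, where the surroundings had 1.01 and 1.03, 1.22 and 1.54, and 0.646 and 0.705. At chr17:81151375-81155211, near the end of 17q, A listed none and B 0.1 kb, with surroundings of 1.45 and 0.909. All 5 had an H3K9me3 fold of 2.50 to 4.20 in A and 2.96 to 3.56 in B.

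Some H3K9me3 regions lay in H3K9me1-rich surroundings, several of them with little H3K9me1 inside. An empty stretch of this size is common, as 53.5% of all arm windows of 1497 bp in A and 46.4% in B held no H3K9me1. Among arm regions of at least 1 kb, the richest surroundings by the mean of A and B were those of chr7:105351001-105352633, at 2.05 in A and 2.27 in B, where H3K9me1 covered 0% and 2.94% of the region itself. A pair of regions on 17q followed, chr17:75133606-75135734 with 2.55 and 1.61 around it and 0% and 4.23% inside, and chr17:75170043-75171268 with 2.35 and 1.63 around it and 0.0816% and 9.54% inside. At chr17:70821332-70822422 the surroundings had 2.06 and 1.81, and A listed none inside while B covered 36.7%, a relative density of 2.45. At chr2:238852201-238853873 they had 1.91 and 1.80, with 12.7% and 16.5% inside, relative densities of 1.13 and 1.10 and so no shortage of H3K9me1. These regions were chosen for their surroundings, which are therefore a description.

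The poorest surroundings of arm regions, by the same mean, were at chr10:2563312-2565506, with 0.0635 in A and 0.132 in B, and at chr10:109710320-109711607, with 0.0719 and 0.224. The others were chr3:75718168-75720105 with 0.243 and 0.212, chr7:157939517-157942066 with 0.348 and 0.436, and chr10:135500043-135501324, at the end of 10q, with 0.436 and 0.389. Of these 5, A listed H3K9me1 inside that on chromosome 3 alone (25.4%) and B inside chr10:2563312-2565506 alone (19.8%). Of shared regions of at least 1 kb, the 5 with the highest H3K9me1 share inside all lay near centromere gaps. That at chr2:92290443-92291709 had 70.6% in A and 69.9% in B, and that at chr7:57993976-57996687 had 30.16% and 29.98%. At chr10:42398401-42400729 the shares were 35.9% and 28.0%. The libraries differed most at chr2:92305534-92310633, with 56.98% in A and 5.90% in B. The chromosome 2 region with 68.3% and 38.6% was the other.

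Windows over clusters of KRAB zinc finger genes, a textbook target of H3K9me3, varied in H3K9me1. Here H3K9me3 densities are relative to each H3K9me3 list. The window at 10p11-q11 (chr10:37500001-44500000), which spans the centromere, had H3K9me3 densities of 16.9 in A and 22.7 in B and H3K9me1 densities of 0.441 and 0.428. At 7q11.21 (chr7:63000001-65000000) H3K9me3 had 6.21 and 1.04, and H3K9me1 0.442 and 0.473. At 1q44 (chr1:247000001-249000000) H3K9me3 had 3.89 and 2.34, and H3K9me1 0.411 and 0.505. At 12q24.33 (chr12:132500001-133841906) H3K9me3 had 4.93 and 1.85, and H3K9me1 0.806 and 0.674. The 10p11-q11 window counts the 3.2 Mb centromere gap of chromosome 10, which no list covers by definition, and this lowers its H3K9me1 density. Of its 56.3 kb of H3K9me3 peaks in A, 13.9 and 11.4 kb belong to the wide regions beside that gap named above. Its values therefore do not describe the zinc finger genes alone. The windows at 7q11.21, 1q44 and 12q24.33 were rich in H3K9me3 in A and poor in H3K9me1 in both libraries. That at 7q11.21 lies within 5 Mb of the centromere gap of chromosome 7, which ends at 61054413. Around H3K9me3 peaks that near a gap, H3K9me1 was below 1 at every distance. Windows were set by position, and how much of each the zinc finger genes fill was not measured. The low H3K9me1 is thus not tied to these genes.

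Other clusters lay in H3K9me1-rich sequence. At 7q36.1 (chr7:148000001-150000000) H3K9me1 had 1.44 and 1.38, and H3K9me3 0 and 0.568. At 16p11.2 (chr16:30000001-32000000) H3K9me1 had 1.39 and 1.25, and H3K9me3 0.446 and 0.561. At 6p22.1 (chr6:27500001-29000000) H3K9me1 had 1.27 and 1.18, and H3K9me3 1.55 and 0. At 3p21.3 (chr3:44000001-45000000) H3K9me1 had 1.26 and 1.17, and H3K9me3 0.633 and 5.08. At 5q35.3 (chr5:178000001-180905205), which B does not list for H3K9me1, H3K9me1 A had 1.22 and H3K9me3 3.70 and 2.72. A density of H3K9me3 in such a window can rest on under 1 kb of peaks. The clusters at 19p12 and 19q13.4 had H3K9me3 densities of 3.83 and 2.45, and of 8.16 and 4.38, but neither control H3K9me1 list holds chromosome 19. Inside the H3K9me3 peaks of the window at 10p11-q11, H3K9me1 covered 8.03 kb of 56.3 kb in A and 4.65 kb of 49.4 kb in B. In any other window on a listed chromosome it covered at most 0.407 kb. Those windows held at most 5.92 kb of peaks each, so the small amounts alone do not show a shortage of H3K9me1.

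The methionine-restricted libraries differed from the controls in this measure, with too few libraries for the test to pass 0.05. Inside the H3K9me3 peaks of the same condition and letter, the relative H3K9me1 density was 7.23 in restricted A and 2.15 in restricted B, against 0.625 and 0.656 in the controls. The log2 difference, control minus restricted, was -2.62 (exact permutation p = 0.3333, two-sided, the smallest that 2 against 2 can give). At 0 to 10 kb it was 1.49 and 0.789 in the restricted libraries (log2 difference -0.80, exact permutation p = 0.3333), and at 190 to 200 kb 1.13 and 0.940 (0.09, exact permutation p = 1). Inside over 100 to 200 kb was 6.41 and 2.32 (log2 difference -2.66, exact permutation p = 0.3333). Adjusted over the 4 zones compared, none falls below 0.3333. With the control H3K9me3 peaks of the same letter for both conditions, the restricted values were 3.46 and 1.43 (log2 difference -1.80). The chromosomes behind these values differ, as both restricted H3K9me1 lists hold chromosomes 19 and 20 and neither control list does. Restricted A lacks only 15 and X, and restricted B only 3, 18, 22 and X. Values on chromosomes common to both conditions are not given here. Restricted A covered 5.35% of its listed chromosomes with H3K9me1 against 11.18% in control A. The restricted cells were also 24 hr later, so restriction and time cannot be told apart.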

How the data were processed

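Peak lists of the 4 control and 4 restricted ChIP libraries were used; input libraries were not analysed here. MACS2 2.1.1.20160309 called broad peaks for each library separately, with the matching input as control, per the file headers. H3K9me3 used q cutoffs of 0.05 and 0.1 and kept all duplicate reads, and H3K9me1 used p cutoffs of 0.0001 and 0.1 and at most 1 read per position. The weak H3K9me1 cutoff admits many weak regions: 95.8% in A and 99.2% in B had −log10 p below 2. Alignment used Bowtie2 2.1.0 and SAMtools 1.5 with hg19, per the submitters' processing notes. The authors deposited for each region a pileup, which is a signal (fragment coverage). They deposited p and q as −log10 values. Their deposited fold is the caller's enrichment of pileup over local background.

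Intervals were computed with Python 3.11.15 and numpy 2.4.6 on chromosomes 1 to 22 and X; a chromosome's length is the highest region end in any list. Each base was assigned to its nearest H3K9me3 peak. Centromere gaps are the longest stretches without a region, or the stretch before the first region where that exceeds 10 Mb. Implied background is pileup over fold, an approximation that can lie above the caller's own background, most where pileup is low. Its expected level is reads times fragment length over the header's genome size. Regions merged over both control H3K9me3 lists (gap 1 kb) were named by rule: the 5 widest, the 5 widest on arms, the 5 arm regions each with the richest and poorest surroundings, and the 5 with the largest H3K9me1 share inside, the last 3 sets of at least 1 kb; 11 zinc finger windows were also set. Members, lists and windows were chosen with earlier results of these data known. Except for control against restricted (exact permutation), values carry no test. The interval code was tested on 300 random sets, of which 0 differed from base-by-base counting.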

Additional observations from a re-analysis of the deposited data

Results flagged for a closer look

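The controls and the restricted libraries lay on opposite sides of 1 inside H3K9me3 peaks. Their values cover different sets of chromosomes, with 19 and 20 in the restricted H3K9me1 lists alone. The log2 difference, control minus restricted, was -2.62 for the density relative to the listed chromosomes and -2.66 for the density relative to 100 to 200 kb away, with both controls below 1 and both restricted libraries above it. The exact permutation p was 0.3333 for each, the smallest 2 against 2 libraries can give. Without peaks near centromere gaps, an alternative added after the data were seen, the controls had 0.463 and 0.762, against 8.75 and 2.50 after restriction. With H3K9me1 regions of −log10 p of at least 2, all 4 lay above 1, at 6.56 and 16.1 in the controls and 180.9 and 45.7 after restriction. No other result was singled out, since groups of 2 libraries are too small to name an outlier.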

How the results depend on the processing

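Values are means of control A and B for inside peaks, 0 to 10 kb, 190 to 200 kb, and inside over 100 to 200 kb, whose values above are 0.640, 0.623, 1.09 and 0.609. With all chromosomes as divisor the first 3 became 1.002, 0.986 and 1.69, since unlisted chromosomes then count as uncovered. With H3K9me1 −log10 p of at least 2 the 4 were 11.3, 1.02, 1.39 and 9.35, and with fold of at least 2 they were 0.247, 0.535, 1.18 and 0.234. With H3K9me3 −log10 q of at least 5 they were 0.898, 0.327, 0.772 and 1.32, the causes not tested. Counting distance from every peak gave 0.838 at 190 to 200 kb, where dense groups of peaks count repeatedly, and 0.784 for the ratio. Merging peaks within 10 kb gave 0.483 inside and 0.460 for the ratio. Removing stretches without regions gave 0.601 and 0.581. Leaving out peaks near centromere gaps gave 0.613, 0.775, 1.18 and 0.532, and leaving out chromosome ends 0.681 inside and 0.654 for the ratio. Crossed letters gave 0.544 inside and 0.503 for the ratio. On the chromosomes both H3K9me1 lists hold, the last step was 1.11 and the ratio 0.586, and with each chromosome's own share the last step was 1.06. H3K9me1 bases in both lists, chosen after the data were seen, gave 0.882, 0.539, 1.16 and 0.761. Leaving out chromosome 19 changed nothing, as it is not listed, and leaving out the acrocentric chromosomes, also chosen later, moved none of the 4 beyond the spread. For the highest quintile of bins, 100 kb bins gave an H3K9me3 density of 0.422 and 5 Mb bins 0.822, against 0.716. Control minus restricted kept its sign in each alternative run, none of which used the same chromosomes for both conditions. It ranged from -3.50 without restricted B to -1.75 without restricted A. With the letter as a replicate block it was -2.62 (exact sign-flip p = 0.5, the smallest possible); the letters share only a name, and A lay below B in the controls and above B in the restricted libraries.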

Other observations

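The H3K9me1 that lay inside H3K9me3 peaks recurred between the 2 control libraries somewhat more than H3K9me1 elsewhere. On the 10 chromosomes in both H3K9me1 lists, 28.0% of the bases listed in A were also listed in B, and 22.9% of those in B also in A. Inside the H3K9me3 peaks of control A these shares were 33.3% and 31.9%, and inside those of control B 43.9% and 36.6%. At 0 to 10 kb from the peaks they were 24.9% and 19.6% for H3K9me3 A, and 26.5% and 19.1% for H3K9me3 B. The bases behind the inside values are few, 17.2 kb and 15.98 kb, and no test was made. Single loci beside centromere gaps can weigh heavily in them. The region chr2:92312546-92325765 alone held 9.03 kb of H3K9me1 in A and 5.11 kb in B. The shares without such loci are not given here. H3K9me1 bases found in both lists had a relative density of 0.718 inside H3K9me3 A peaks and 1.05 inside H3K9me3 B peaks, and of 0.529 and 0.549 at 0 to 10 kb.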
